A study of Mus musculus with 39 samples.

Results

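Among single cells of the Krt19 lineage of adult mouse liver, 22 of 39 were duct-like, and they were divided here by their level of Krt19 mRNA. Duct-like meant that Spp1, which encodes the secreted bile duct protein osteopontin, reached 100 CPM, the level of a transcript scaled to library size, and that Apoa1, which encodes the main protein of high-density lipoprotein and marks hepatocytes, stayed under 100 CPM. Within them 11 cells had Krt19 at 100 CPM or more and are called Krt19-high (cells 9, 11, 12, 13 and 18 to 24). A further 7 cells had Krt19 under 1 CPM and are called Krt19-undetected (cells 15, 16, 17, 26, 30, 31 and 34), and 4 cells lay between (cells 14, 25, 27 and 28). The cells were chosen by their measured levels of Krt19, Spp1 and Apoa1, so these values describe the choice and nothing is drawn from them.

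All cells, in every group, came from adult mice that carry Krt19CreERT and Rosa26CAG-EGFP. In this design a Cre recombinase driven by Krt19 switches on a green fluorescent protein, which then stays on in the cell and its descendants, so a green cell need not make Krt19 when it is collected. Green cells were sorted from liver by flow cytometry, and each was picked singly into lysis buffer that held reverse transcriptase. The labels name no animal, age beyond adult, sex, induction schedule, sort or sequencing run, and the groups here were made from the data, not by the study. The cells may all come from 1 animal, so each side counts as 1 sample, no test was made, and every difference below is a description of these cells with no replicate check.

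Cholangiocytes line the bile ducts and modify bile by moving water, chloride and bicarbonate across a polarised epithelium. Krt19 encodes keratin 19, an intermediate filament protein of simple epithelia that marks these cells in liver, together with keratin 7, while keratins 8 and 18 are shared with hepatocytes. Hepatocytes make most plasma proteins, among them albumin, transferrin and the apolipoproteins, and lack Krt19 in healthy liver.

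Krt19 in the Krt19-high cells ran between 166 CPM (cell 20) and 20676 CPM (cell 24), with a median of 617 CPM. In the Krt19-undetected cells it was listed at 0 in 6 cells and at 0.224 CPM in cell 34. The nearest cells outside the limits were cell 14 at 80.4 CPM and cell 28 at 1.60 CPM. Spp1 was lowest at 149 CPM in cell 24 and at 534 CPM in cell 9, and of the cells left out for a low Spp1 level the nearest was cell 4, at 99.8 CPM, which also had Apoa1 at 12440 CPM. Apoa1 came nearest to its limit in cell 31, a Krt19-undetected cell, at 95.0 CPM.

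The libraries of the sides differed in several measures. The back-transformed values summed to 774081 to 1536370 CPM per Krt19-high cell except cell 24, at 3128330 CPM, and to 626358 to 1625440 CPM per Krt19-undetected cell, so these CPM do not add up to the same total in every cell, and the values of cell 24 are part of a larger sum. Genes at 1 CPM or more numbered 2445 to 3289 (median 2964) in Krt19-high cells and 1866 to 3816 (median 2322) in Krt19-undetected cells. The most frequent low value above 0 in a cell was taken as 1 read, which is an assumption. By it, 1 CPM stood for 5.78 to 19.8 reads in Krt19-high cells and for 4.46 to 14.9 reads in Krt19-undetected cells. A gene under 1 CPM thus rested on few reads. Of 15 housekeeping genes, 3 to 7 were listed at 0 in a Krt19-high cell and 2 to 6 in a Krt19-undetected cell, and a gene listed at 0 is therefore not shown to be absent. The share of Rn45s, a ribosomal RNA precursor, in the summed CPM was 14.6% to 31.2% in Krt19-high cells and 10.4% to 18.5% in Krt19-undetected cells. The part of these library measures in the differences below was not tested.

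Cell number was the only order in the labels, and it was not balanced between the groups. The Krt19-high cells were numbered 9 to 24, and the Krt19-undetected cells 15 to 17 and 26 to 34. Differences are therefore also given within the 9 lower-numbered compared cells (cells 9 to 19, of which 6 were Krt19-high and 3 Krt19-undetected) and within the 9 higher-numbered ones (cells 20 to 34, 5 Krt19-high and 4 Krt19-undetected), a division chosen after seeing the data. What the number stands for is not given in the sources used here.

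**Figure D1:**
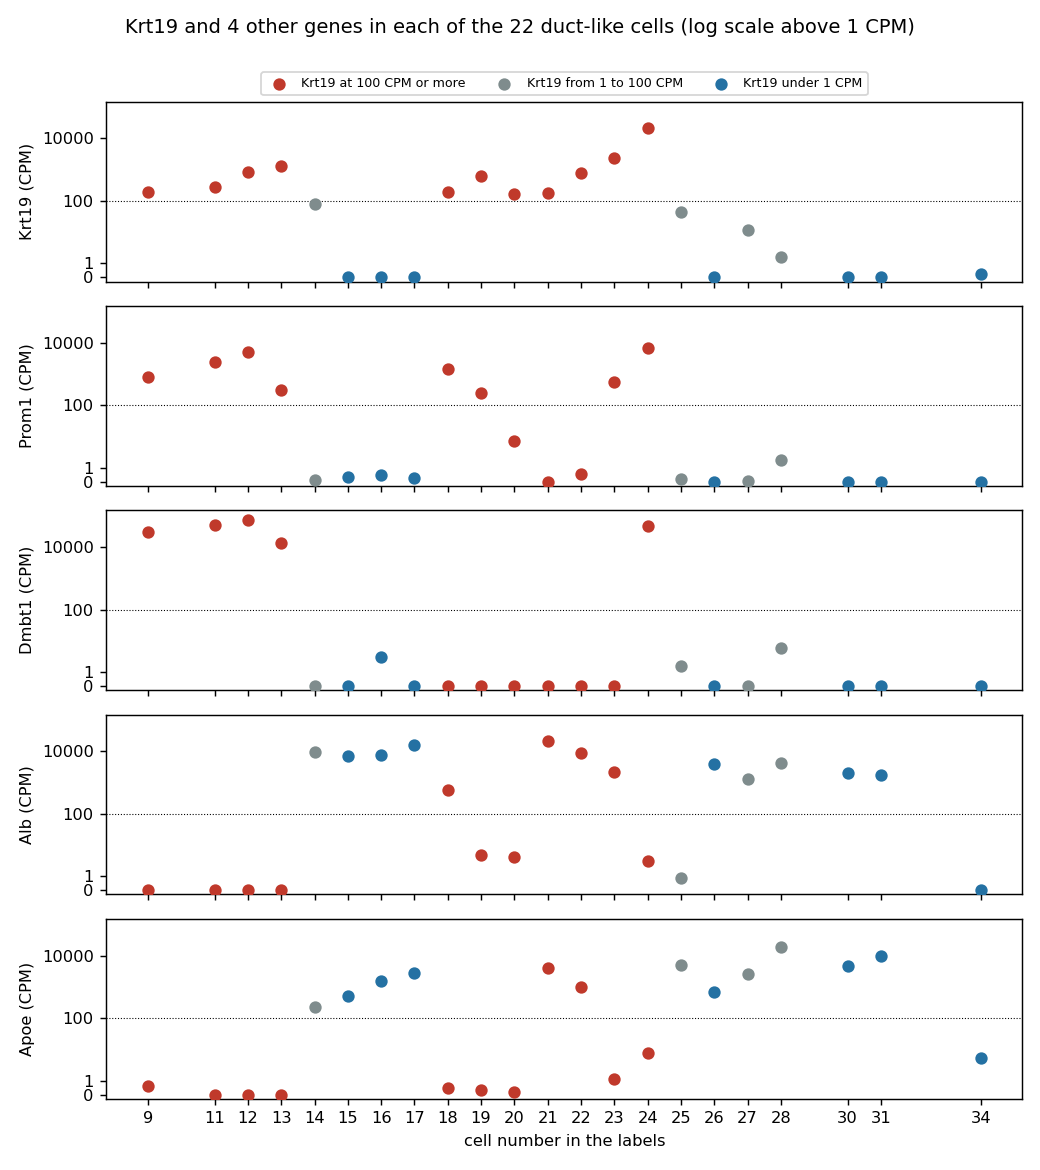
Level of Krt19, Prom1, Dmbt1, Alb and Apoe (CPM, log scale above 1 CPM) in each of the 22 duct-like cells by cell number, with points coloured by Krt19 group and a dotted line at 100 CPM. Prom1 reached 100 CPM in 8 of 11 Krt19-high and 0 of 7 Krt19-undetected cells, and Dmbt1 in 5 and 0, while Apoe reached it in 2 and 6.

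The duct label was set beside 24 measured bile duct markers other than the genes of the rule. Tm4sf4, a tetraspanin relative of epithelial cells, reached 100 CPM in 11 of 11 Krt19-high and 6 of 7 Krt19-undetected cells. The general epithelial keratin genes Krt18 and Krt8 reached it in 11 and 7 and in 11 and 5 cells, while cells 16 and 17 of the Krt19-undetected side had Krt8 at 18.5 and 18.3 CPM. Between 7 and 12 of the markers (median 9) reached 100 CPM in a Krt19-high cell and between 6 and 10 (median 9) in a Krt19-undetected cell. Both sides thus carried duct markers in like number. The count is not given for the cells that were not duct-like, so it does not show how particular the markers were to duct-like cells. Endothelial markers (8 measured) summed to at most 2.15 CPM in a Krt19-high and 1.66 CPM in a Krt19-undetected cell. Markers of other cell types summed to more in single cells. Mesothelial markers reached 3401 and 119 CPM, macrophage markers 2579 and 901 CPM and general leukocyte markers 1863 and 20.4 CPM. Up to 3 mesothelial markers were at 100 CPM in a Krt19-high cell. The duct label thus does not mean that a cell lacked genes of other cell types.

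Genes that differed between the sides were counted by the difference in mean log2(CPM + 1), Krt19-high minus Krt19-undetected, with 3 (8-fold on that scale) as the threshold. Krt19-high cells were higher by 3 or more in 213 of 10060 genes (2.12%) and lower by 3 or more in 120 (1.19%), and the median difference over all genes was 0.10. Among the 575 genes that reached 100 CPM in at least 6 of the 18 compared cells, 72 (12.5%) were higher and 26 (4.52%) were lower, with a median of 0.71. A gene passes this filter more easily through the 11 Krt19-high cells than through the 7 Krt19-undetected cells. The excess of higher genes and the larger median are thus partly built in by the filter, and these shares serve only as a reference for lists filtered alike. No gene other than Krt19 separated the 11 from the 7 cells without overlap, so every difference below is a matter of how many cells held a gene and not of all cells against all.

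**Figure D2:**
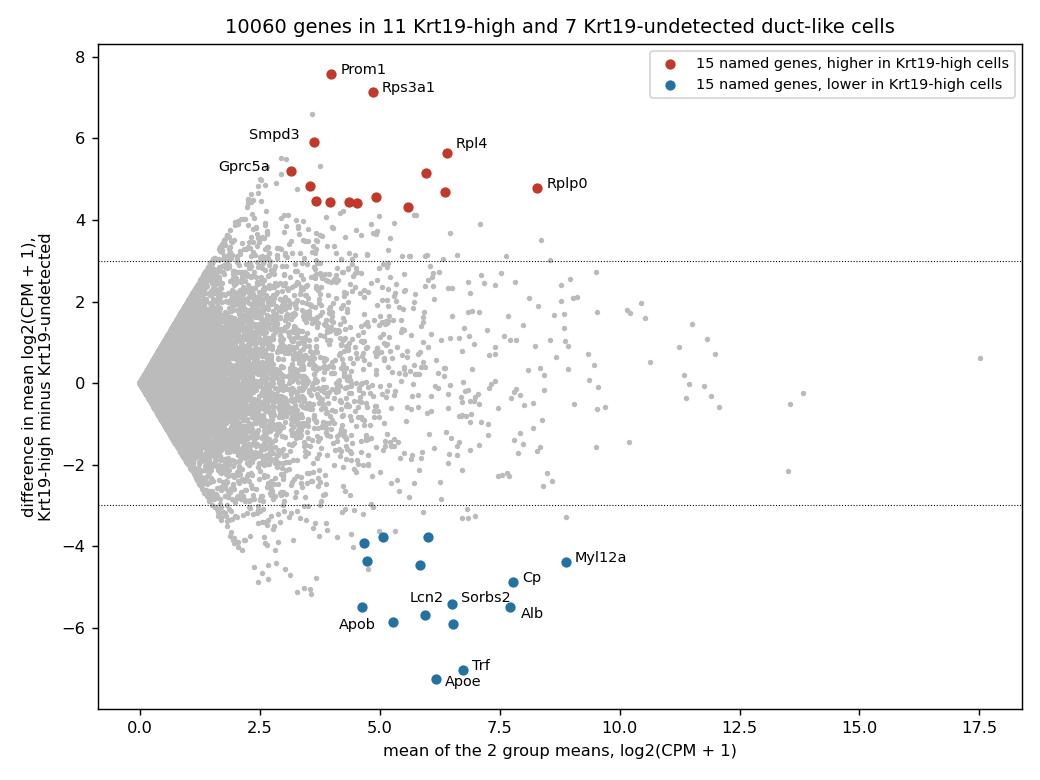
Difference in mean log2(CPM + 1), Krt19-high minus Krt19-undetected, against the mean of the group means for 10060 genes (grey), with the 15 named genes on each side in colour and dotted lines at 3 and -3. Prom1 lay highest at 7.58 and Apoe lowest at -7.25.

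Prom1, which encodes the membrane glycoprotein prominin-1 (CD133) of apical protrusions and is often used to sort liver progenitor and duct cells, had the largest positive difference, 7.58. Its level in the Krt19-high cells was 829, 2468, 5047 and 317 CPM in cells 9, 11, 12 and 13, then 1450, 240, 7.37, 0, 0.519, 566 and 6819 CPM in cells 18 to 24. In the Krt19-undetected cells it was highest at 0.497 CPM, and in the 4 cells between at 1.83 CPM. Prom1 was thus high in most but not all Krt19-high cells, with cells 20, 21 and 22 low, and low in every other duct-like cell. The share of cells at 100 CPM was 8 of 11 (72.7%, exact Clopper-Pearson 95% interval 39.0% to 94.0%) in Krt19-high and 0 of 7 in Krt19-undetected cells, which allows up to 41.0%, and these intervals cover counting error over cells alone. Outside the duct-like cells it was 1 of 17. The difference was 9.53 in the lower-numbered and 5.11 in the higher-numbered cells.

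Smpd3, which encodes neutral sphingomyelinase 2, an enzyme that makes ceramide, reached 100 CPM in 7 of 11 Krt19-high cells (lowest 1.26, median 143, highest 3720 CPM). Its highest level in a Krt19-undetected cell was 24.9 CPM, in cell 30, the other 6 being listed at 0. The ranges overlapped because 4 Krt19-high cells lay below cell 30, and the difference of 5.90 was 5.94 and 6.16 in lower- and higher-numbered cells. Gprc5a, a retinoic acid-induced orphan receptor, had 6 of 11 Krt19-high and 0 of 7 Krt19-undetected cells at 100 CPM and a difference of 5.19, and it also reached 100 CPM in 2 of the 4 cells between. Smpd3 and Gprc5a did not mark the same Krt19-high cells: cells 9, 11 and 12 held Smpd3 at 520, 143 and 128 CPM with Gprc5a at 0, 0.196 and 0.0723 CPM.

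The promoter of Prom1, the gene with the largest positive difference, is shown as the 100 bases before the transcription start, 5′ to 3′ on the gene's strand, from RefSeq on GRCm38.p6 (chr5:44101737-44101836, minus strand). Capitals mark a match to TGANTCA, the site of the AP-1 factors that immediate early genes encode.
Prom1: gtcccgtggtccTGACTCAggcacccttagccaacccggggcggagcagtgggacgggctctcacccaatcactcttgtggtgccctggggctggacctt
The match begins 88 bases before the start. Over all 32851 promoter windows, 250 bases before to 50 after a start and read on both strands, TGANTCA occurs in 7.81%. A match is only a run of letters, and nothing was measured here about binding.

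Genes of bile secretion and transport were higher in some Krt19-high cells. Of 16 measured members 4 were higher by 3 or more (25.0%, beside 2.12% over all genes) and 0 lower, and the median difference was 1.25, beside 0.10 over all genes. Ano1, a calcium-activated chloride channel, reached 100 CPM in 5 of 11 Krt19-high cells (cells 9, 11, 18, 20 and 23, at 336 to 1292 CPM) and was at most 4.93 CPM in a Krt19-undetected cell, with a difference of 5.12. Aqp1, the water channel aquaporin 1, stood at 1499, 116, 4920 and 927 CPM in cells 9, 11, 12 and 13 and at or under 0.173 CPM in the other Krt19-high cells, and was listed at 0 in all 7 Krt19-undetected cells. Its difference of 3.62 belonged to the lower-numbered cells (6.59 there, 0.05 in the higher-numbered) and was under 3 without cell 9, 12 or 13. Car2, carbonic anhydrase 2, which supplies bicarbonate, reached 100 CPM in 3 Krt19-high cells (365, 196 and 8987 CPM in cells 11, 12 and 24) and in 0 Krt19-undetected cells, but also in 3 of the 4 cells between. Adcy6, an adenylate cyclase, had a difference of 3.22 that was under 3 without cell 18, 19 or 21. Slc4a2, the anion exchanger of bicarbonate secretion, reached 100 CPM in 1 Krt19-high and 0 Krt19-undetected cells.

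The bile duct marker list as a whole was less one-sided. Of its 24 members, 3 (Prom1, Muc1 and Aqp1) were higher by 3 or more (12.5%, beside 2.12% over all genes). Cp was lower (4.17%, beside 1.19%), and the median difference was 1.25. Of the 12 members that reached 100 CPM in at least 6 compared cells, 1 was higher and 1 lower. These were 8.33% each, beside 12.5% and 4.52% of all such genes. Cd24a, a surface glycoprotein of duct cells, reached 100 CPM in 8 of 11 Krt19-high and 4 of 7 Krt19-undetected cells, and Epcam, an epithelial adhesion molecule, in 2 and 3. Of the keratins, Krt8 differed by 1.60, Krt7 by 2.03, Krt18 by -0.03 and Krt23 by -1.53, all under the threshold. Within the lower- and higher-numbered cells Krt8 differed by 4.05 and 0.02, Krt18 by 2.15 and -1.95 and Krt23 by -5.31 and 2.08. Krt18 was at 243 to 13990 CPM in Krt19-high cells and at 196 to 14520 CPM in Krt19-undetected cells, so the ranges overlapped almost wholly.

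Junction and polarity genes counted 4 of 30 higher (13.3%, beside 2.12% over all genes) and 0 lower, with a median of 0.79. In the higher-numbered cells 3 were higher and 3 lower, with a median of 0.16. Over all 10060 genes 332 were higher and 481 lower there, with a median of 0. Cldn2, a pore-forming claudin, reached 100 CPM in 7 Krt19-high and 2 Krt19-undetected cells with a difference of 3.17. The cell adhesion genes Dsg2, Ctnnd1 and Itgb4 had differences of 3.11, 3.89 and 3.21. Cldn2 had the other sign by cell number, with -3.06 in the higher-numbered cells. Cldn2, Dsg2 and Itgb4 were each under 3 when any of several single cells was left out (Cldn2 2.58 without cell 12, Dsg2 2.46 without cell 16, Itgb4 2.60 without cell 13). Cdh1, encoding E-cadherin, reached 100 CPM in 8 and 5 cells. Among 20 measured cilium and polycystic genes 0 passed the threshold in either direction.

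Transcription factors of the hepatobiliary list counted 1 of 28 higher (Zhx2, 3.08, and 2.22 without cell 21) and 0 lower, near the 2.12% over all genes. Sox9, a factor of duct and progenitor cells, reached 100 CPM in 2 of 11 Krt19-high cells (cells 21 and 24, at 3411 and 6225 CPM) and 2 of 7 Krt19-undetected cells (cells 31 and 34, at 429 and 2876 CPM), but in all 4 cells between. The cells with high Sox9 lay on both sides. Onecut2, a factor of duct development, reached 100 CPM in 9 Krt19-high and 5 Krt19-undetected cells, and Hnf4a, a hepatocyte factor, in 2 and 2. Prox1, a factor of hepatoblasts and hepatocytes, reached it in 0 Krt19-high and 3 Krt19-undetected cells with a difference of -2.85.

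**Figure D3:**
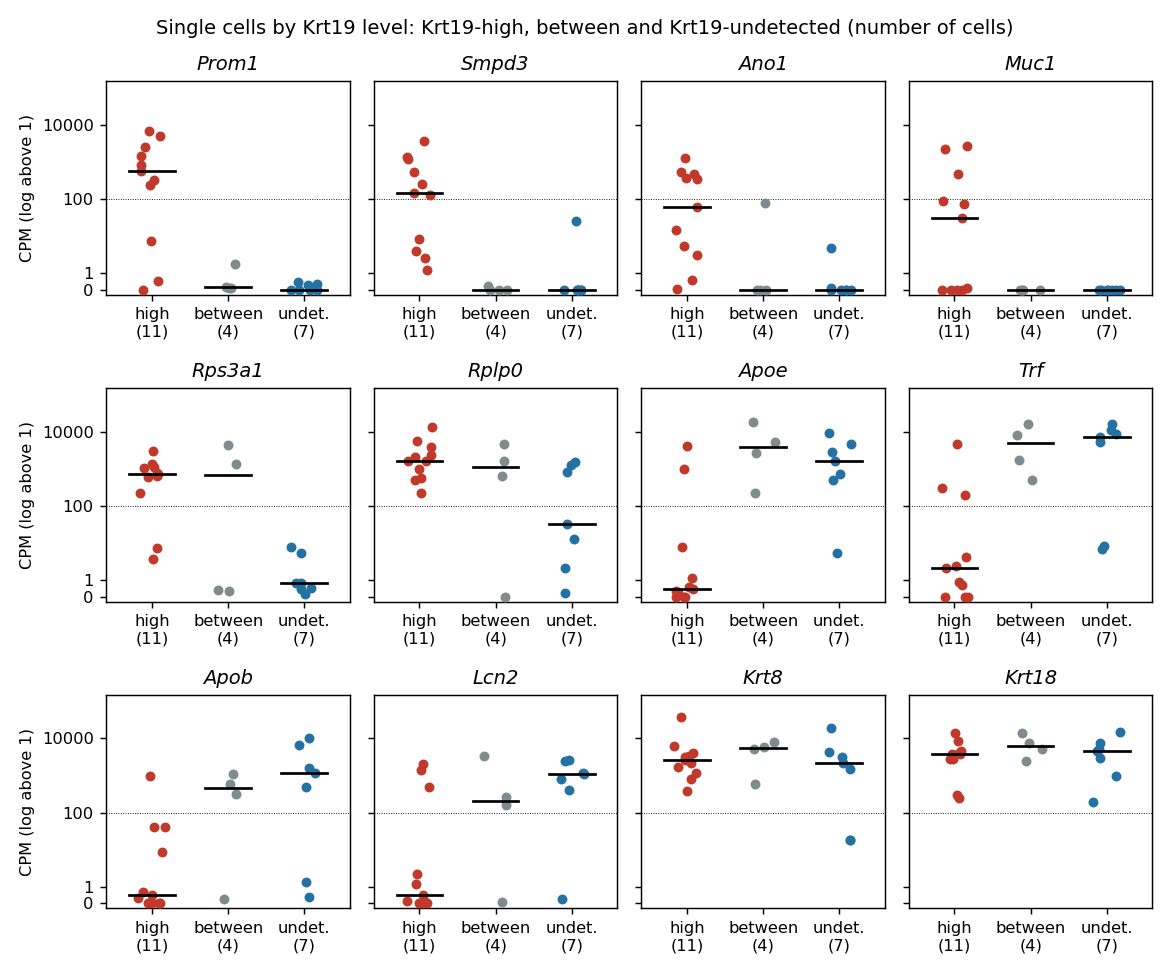
Level of 12 genes (CPM, log scale above 1 CPM) in Krt19-high cells (11), cells between (4) and Krt19-undetected cells (7), with 1 point per cell, a bar at the median and a dotted line at 100 CPM. The median of Apoe was 0.452 CPM in Krt19-high and 1576 CPM in Krt19-undetected cells, while the points of Krt8 and Krt18 overlapped between the sides.

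A subset of plasma protein genes was lower in Krt19-high cells. Of 50 hepatocyte markers, 8 were lower by 3 or more (16.0%, beside 1.19% over all genes) and 0 higher. Of the 7 markers that reached 100 CPM in at least 6 compared cells, 5 were lower (71.4%, beside 4.52% of such genes). The median over the 50 was -0.30, and over the 17 that reached 1 CPM in at least 4 compared cells it was -2.76 (7 of them lower by 3 or more), the other members being scarcely detected on either side. A marker can pass either filter mainly through the Krt19-undetected cells where it is high, so the filtered values are no separate support for the difference. The 8 were Apoe, Trf, Apob, Ahsg, Alb, Hp, Apoc1 and Fgb.

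Apoe, which encodes the lipid carrier apolipoprotein E, had the largest negative difference, -7.25. In Krt19-high cells it was under 8 CPM except in cells 21 and 22, at 3987 and 974 CPM. In the Krt19-undetected cells it was 511, 1576, 2730, 705, 4736 and 9395 CPM in cells 15, 16, 17, 26, 30 and 31 and 5.39 CPM in cell 34, and in the 4 cells between it was 221 to 18535 CPM. Apoe was thus high in 6 of 7 Krt19-undetected cells and in all cells between, and the 2 high Krt19-high cells made the ranges overlap. The difference was -10.07 in the lower-numbered and -4.11 in the higher-numbered cells. Apoe and Prom1 never reached 100 CPM in the same duct-like cell: 8 cells had Prom1 alone, 12 had Apoe alone and 2 had neither. These are the genes with the most opposed differences, so the pair was chosen for its pattern, and Prom1 did reach 100 CPM together with Alb in 2 Krt19-high cells.

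Trf, encoding the iron carrier transferrin, reached 100 CPM in 3 of 11 Krt19-high cells (191, 297 and 4574 CPM in cells 19, 20 and 21) and in 5 of 7 Krt19-undetected cells (5312 to 15537 CPM). Its median was 2.08 CPM in Krt19-high and 7309 CPM in Krt19-undetected cells, and the difference of -7.04 was -11.40 and -3.08 in lower- and higher-numbered cells. Apob, the structural protein of very-low-density lipoprotein, reached 100 CPM in 1 and 5 cells with a difference of -5.85, and Ahsg, encoding fetuin-A, in 2 and 5 with -5.50. These 3 genes were low in most Krt19-high cells and high in most, but not all, Krt19-undetected cells. Of the 4 cells between, Trf reached 100 CPM in 4 and Apob in 3, so high levels were not particular to Krt19-undetected cells.

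Alb, encoding albumin, was listed at 0 in cells 9, 11, 12 and 13 of the Krt19-high side and was 564, 4.69, 4.19, 20694, 9042, 2190 and 3.09 CPM in cells 18 to 24. In the Krt19-undetected cells it was 6974, 7438, 16056, 3864, 2027 and 1695 CPM in cells 15, 16, 17, 26, 30 and 31, and listed at 0 in cell 34. Both sides held cells with high Alb, and the highest single value was in a Krt19-high cell. Of the 4 cells between, 3 had Alb at 100 CPM or more. The difference of -5.49 was -11.26 in the lower-numbered cells and 0.19 in the higher-numbered ones, so for Alb it belonged to the lower-numbered cells.

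Hp, encoding the haemoglobin-binding protein haptoglobin, reached 100 CPM in 0 Krt19-high and 3 Krt19-undetected cells (cells 17, 30 and 31), with a difference of -4.80. Apoc1, another apolipoprotein gene, did so in 0 and 3 cells with -4.67. Fgb, the fibrinogen beta chain, did so in 0 and 2, and its difference of -3.09 rested on cells 30 and 31, being -1.50 without cell 31 and -2.36 without cell 30, and it was 0.00 in the lower-numbered cells. Cp, encoding the copper-carrying ferroxidase ceruloplasmin and listed here as a duct marker, differed by -4.87, but by -9.75 and -0.32 in lower- and higher-numbered cells.

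Several other hepatocyte genes were low in both sides. In the 6 cells of the series with Apoa1 at 100 CPM or more, Alb had a median of 27029 CPM, Apoa2 of 7583 CPM, the fatty acid binding protein gene Fabp1 of 6207 CPM and the protease inhibitor gene Serpina3k of 7058 CPM. In the Krt19-high cells Alb had a median of 4.19 CPM, and Apoa2, Fabp1 and Serpina3k were highest at 0.173, 0.519 and 0.688 CPM. In the Krt19-undetected cells Alb had a median of 3864 CPM, while Apoa2, Fabp1 and Serpina3k were highest at 4.72, 0.139 and 0.833 CPM. Among the 4 cells between, cell 28 had Serpina3k at 233 CPM. Apoa1 was part of the rule for duct-like cells and also picked out the 6 cells set beside them. The gap between those 6 cells and the duct-like cells is thus partly built in by the choice, and nothing is drawn from it. Apoa2, Fabp1 and Serpina3k are also a choice from 50 hepatocyte markers. The number of hepatocyte markers at 100 CPM was 0 to 7 (median 3) in Krt19-high cells and 7 to 15 (median 11) in the 4 cells between. In Krt19-undetected cells it was 2 to 19 (median 8), with 17 and 19 in cells 30 and 31. With those 2 cells left out, a choice made after seeing the data, 6 hepatocyte markers were lower by 3 or more.

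The Krt19-high cells differed among themselves. Dmbt1, encoding a secreted mucosal scavenger protein, was at 30698, 50843, 73383, 12939 and 47943 CPM in cells 9, 11, 12, 13 and 24, and listed at 0 in cells 18 to 23. It was at most 3.11 CPM in a Krt19-undetected cell. Muc1, a membrane mucin of duct and other gland epithelia, stood at 2286, 2751 and 482 CPM in cells 11, 12 and 13, at 75.8 and 89.4 CPM in cells 9 and 24 and at most 31.7 CPM in the others. Gpx2, an epithelial glutathione peroxidase, reached 149, 622, 186 and 19190 CPM in cells 11, 12, 13 and 24, and its difference of 3.63 was 2.57 without cell 24. Dmbt1 and Alb did not reach 100 CPM together in any duct-like cell: 5 had Dmbt1 alone, 13 Alb alone and 4 neither. The 5 cells with Dmbt1 were picked out after their values were seen, and 4 of them carry neighbouring cell numbers.

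Acute phase and innate defence genes differed in both directions, with 3 of 25 higher (Dmbt1, Gpx2 and Muc1, 12.0% beside 2.12% over all genes) and 4 lower (Lcn2, Hp, Cp and C4b, 16.0% beside 1.19%). Lcn2, encoding the iron-sequestering protein lipocalin 2 of epithelia and granulocytes, reached 100 CPM in 3 of 11 Krt19-high and 6 of 7 Krt19-undetected cells, and in 3 of the 4 cells between. Its level in Krt19-high cells was 0 to 2009 CPM (median 0.519) and in Krt19-undetected cells 0.249 to 2556 CPM (median 1107). The difference of -5.69 was -4.89 and -5.71 in lower- and higher-numbered cells. Lcn2 is also on the granulocyte list, where it was the 1 of 11 members past the threshold, and the summed level of that list was 0 to 2009 CPM (median 4.57) in Krt19-high and 0.933 to 2603 CPM (median 1112) in Krt19-undetected cells. C4b, a complement protein, differed by -4.79.

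Ribosomal protein genes made up 6 of the 15 named genes with the largest positive differences. They were Rps3a1 (7.14), Rpl4 (5.64), Rpl32 (5.15), Rplp0 (4.77), Rpl7 (4.68) and Rpl12 (4.48). Over the 86 such genes 13 were higher (15.1%, beside 2.12% over all genes) and 0 lower, with a median of 1.42, beside 0.10 over all genes. Among the 63 of them that reached 100 CPM in at least 6 compared cells, 11 were higher (17.5%), beside 12.5% of all such genes, so the share was not far from that of other abundant genes. Rps3a1 reached 100 CPM in 9 of 11 Krt19-high cells (3.65 to 2945 CPM) and was at most 7.95 CPM in a Krt19-undetected cell, yet it reached 100 CPM in all 17 cells that were not duct-like. Rplp0 was at 218 to 13404 CPM in Krt19-high cells and, in Krt19-undetected cells, at 1232, 819 and 1527 CPM in cells 16, 31 and 34 and at 31.8 CPM or less in the other 4. Reads of ribosomal protein genes and their processed pseudogenes can be exchanged, so single members are uncertain. Ribosomal protein genes took a median of 2.24% of the summed CPM in Krt19-high cells (1.69% to 4.47%, and 8.41% in cell 24) and 2.07% in Krt19-undetected cells (1.12% to 3.49%).

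Respiratory chain genes counted 11 of 76 higher (14.5%, beside 2.12% over all genes) and 0 lower, with a median of 1.33, beside 0.10 over all genes. Of the 29 abundant ones 5 were higher (17.2%, beside 12.5% of all abundant genes). In the higher-numbered cells 5 of the 76 were higher and 6 lower, and of the 86 ribosomal protein genes 10 were higher and 6 lower. Over all 10060 genes 332 were higher and 481 lower there. Ndufb8, a complex I subunit, was among the 15 named genes at 4.83. Relative to the median of all genes, the list median was 2.51 in the lower-numbered and -0.07 in the higher-numbered cells, and that of the ribosomal protein genes 2.81 and 0.55. Both medians were thus larger in cells 9 to 19, which held Krt19-undetected cells 15, 16 and 17 with the fewest genes at 100 CPM of the compared cells (595, 637 and 581). Proteasome subunit genes counted 0 of 45 higher and 3 lower (Psma2, Psmb6 and Psmc4, 6.67% beside 1.19% over all genes). Of the 4 abundant proteasome genes 0 were lower. Each of the 3 fell short of the threshold when some single cell was left out, and Psmc4 differed by 0.75 in the higher-numbered cells. The part of library complexity in these counts was not tested.

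Heat shock and chaperone genes counted 5 of 19 higher and 0 lower (Hspa8, Hspd1, Dnaja1, Dnajb1 and Atf4), with a median of 1.67. The 5 made up 26.3% of the list, beside 2.12% over all genes, but with all duct-like cells under 100 CPM of Krt19 as the other side 1 was higher. Hspa8, a constitutive chaperone of the Hsp70 family, reached 100 CPM in 10 of 11 Krt19-high and 3 of 7 Krt19-undetected cells, but its difference of 3.52 was 7.73 in the lower-numbered and 0.10 in the higher-numbered cells, and it was under 3 without cell 16, 17 or 34 (2.63 without cell 16). Atf4, a stress-response transcription factor, reached 100 CPM in 6 and 0 cells with a difference of 3.99. Immediate early and dissociation genes, which cell isolation induces, counted 4 of 35 higher (Egr2, Dusp1, Zfp36l1 and Klf10, 11.4% beside 2.12% over all genes) and 0 lower. With each cell rescaled to the same sum, or with all duct-like cells under 100 CPM of Krt19 as the other side, 1 was higher. Of the 21 immediate early and dissociation genes that reached 100 CPM in at least 6 compared cells, 2 were higher (9.52%). Their median was 0.08, and both values lay below the 12.5% and 0.71 of all such genes. Hspd1, Dnajb1, Egr2, Dusp1 and Klf10 were each under 3 when some single cell was left out.

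Hippo pathway genes counted 0 of 19 higher and 3 lower (Lats2, Cyr61 and Vgll4), 15.8% beside 1.19% over all genes, with a median of -0.01. With all duct-like cells under 100 CPM of Krt19 as the other side 1 was lower. Cyr61, a matricellular target of that pathway, was listed at 0 in cells 9, 11, 12 and 13 and was 87.3 to 1541 CPM in cells 18 to 23 with 0.172 CPM in cell 24, beside 22.0 to 2096 CPM in Krt19-undetected cells, and its difference of -3.31 was -2.80 without cell 9. Notch pathway (15 genes), EGF family (8) and chemokine and NF-kB genes (23) had 0 past the threshold in either direction. Wnt pathway genes had 1 of 27 lower (Gsk3b, 3.70% beside 1.19% over all genes). Reported progenitor genes had 1 of 19 higher (Prom1, 5.26% beside 2.12% over all genes). Class I antigen presentation genes counted 0 of 17 higher and 2 lower (H2-K1 at -3.30 and H2-T23 at -3.09), with a median of -0.83. The 2 made up 11.8% of the list, beside 1.19% over all genes. In the lower-numbered cells the list median was 0.10, beside 0.30 over all genes, with 5 higher and 3 lower. Over all 10060 genes 807 were higher and 379 lower there. Without the Krt19-undetected cells that had 10 or more hepatocyte markers, the list median was 0.01, beside 0.29 over all genes. The H2 genes are near-identical and their reads may be exchanged, and both differences were under the threshold when single cells were left out (-2.68 for H2-K1 without cell 12, -2.64 for H2-T23 without cell 17).

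Proliferation genes had 0 of 23 past the threshold. Arrest genes counted 1 of 11 higher and 1 lower (9.09% each, beside 2.12% and 1.19% over all genes). Btg1, an antiproliferative gene, was higher (4.13, with 8 of 11 Krt19-high and 2 of 7 Krt19-undetected cells at 100 CPM). Cdkn1a, encoding the inhibitor p21, was lower (-4.41), reaching 100 CPM in 1 Krt19-high cell and in 2 Krt19-undetected cells (3029 and 1347 CPM in cells 26 and 34), and its difference was 0.30 in the lower-numbered cells. Glutathione and redox genes counted 2 of 27 higher (Gpx2 and Gstm2, 7.41% beside 2.12% over all genes) and 1 lower (Mgst1, 3.70% beside 1.19%). Ferritin and iron genes had 0 of 6 past the threshold in either direction.

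Further named genes were enzymes, regulators and cytoskeletal genes. Higher in Krt19-high cells were Aldoa, the glycolytic enzyme aldolase A (4.57), Txnl4a, a splicing factor (4.45), Fam120a (4.43), the transcriptional coactivator Edf1 (4.43) and the RNA-binding protein gene Ybx1 (4.32). Lower were Sorbs2, an adaptor of the actin cytoskeleton (-5.42), Wdr26 (-4.47), Myl12a, a myosin regulatory light chain (-4.40), the nuclear receptor gene Rora (-4.36), the tetraspanin gene Tspan12 (-3.93), the fibronectin gene Fn1 (-3.77) and Ptprs, a receptor phosphatase (-3.77). Eno1b differed by -5.91, but it is near-identical to the enolase gene Eno1 and its reads are uncertain. Fn1 was -2.89 without cell 34 and -2.90 without cell 16, and it was the 1 gene of these 30 that dropped under the threshold when a single cell was left out.

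Mesothelial (11 measured), macrophage (12), general leukocyte (11), endothelial (8) and erythroid (1) lists had 0 members past the threshold, and of 15 housekeeping genes Rplp0 alone was past it. Fibroblast and stellate markers had 1 of 17 lower (5.88%, beside 1.19% over all genes), Rgs5, a pericyte gene, at -3.00 (2.10 in lower-numbered cells). Their summed level was 1.73 to 2347 CPM (median 24.7) in Krt19-high cells and 6.45 to 4888 CPM (median 9.08) in Krt19-undetected cells. General leukocyte markers summed to 3.80 to 1863 CPM (median 19.2) in Krt19-high cells, with up to 3 at 100 CPM in a cell, and to 2.99 to 20.4 CPM (median 13.4) in Krt19-undetected cells. Macrophage markers were highest at 2579 CPM in a Krt19-high and 901 CPM in a Krt19-undetected cell. Mesothelial markers summed to 2.47 to 3401 CPM (median 12.5) in Krt19-high cells and 0.484 to 119 CPM (median 1.06) in Krt19-undetected cells.

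**Figure D4:**
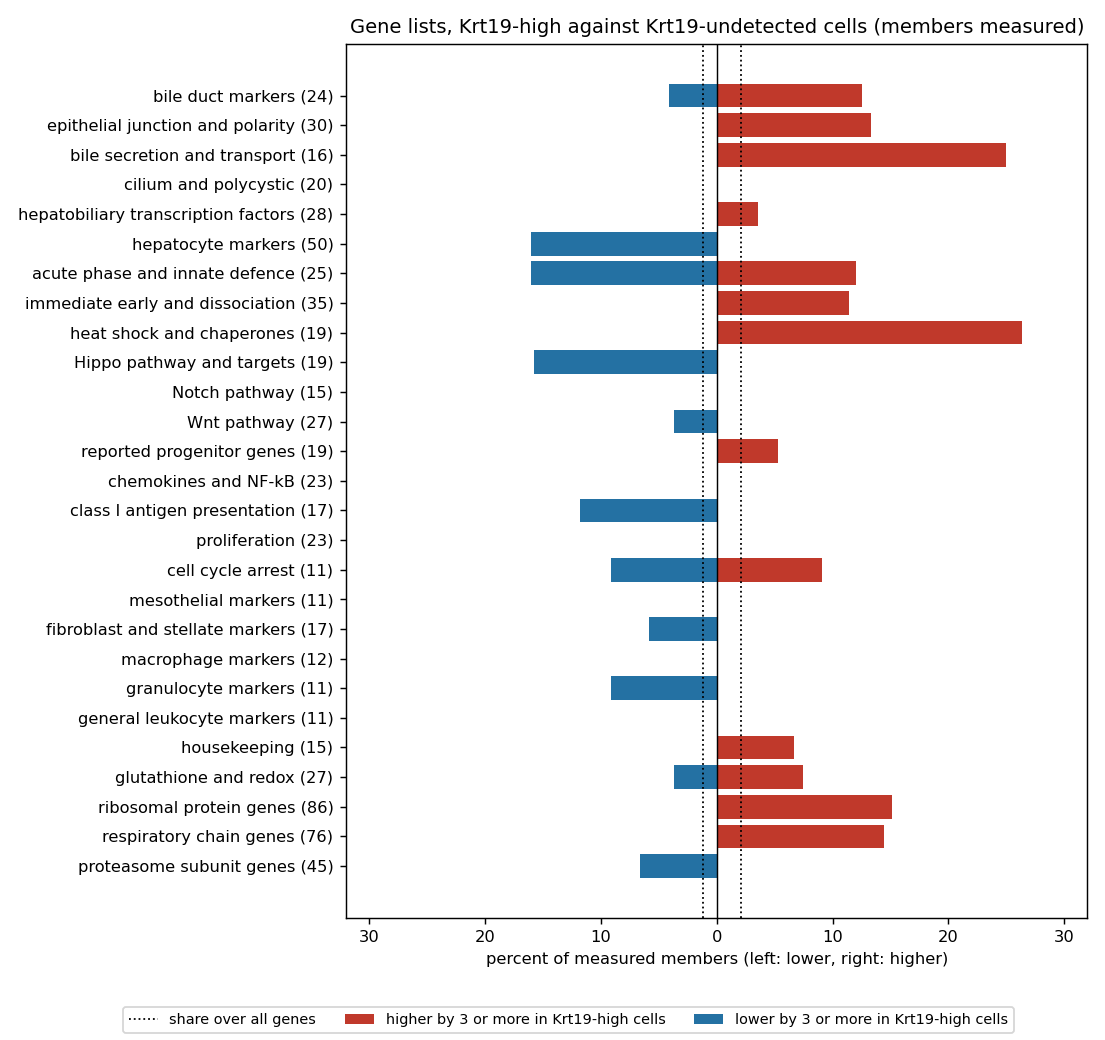
Percent of the measured members of each gene list (number in brackets) that were higher (right) or lower (left) by 3 or more in Krt19-high cells, with dotted lines at the share over all genes, 2.12% and 1.19%. Hepatocyte markers lay to the left with 16.0%, and ribosomal protein genes to the right with 15.1%.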

How the data were processed

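The authors deposited 1 table of log2 expression values for 13568 transcripts in 39 single cells. Per the submitters' processing notes, Bowtie 0.12.9, eXpress 1.5.1, edgeR and the genome build mm9 were used, with no roles given. The deposited log2 values were turned into CPM as 2 to the value minus 2 to the lowest value of the file (-2.58), taken as the level of no reads, and were summed per symbol (10061 symbols). The file holds no counts. No cell was left out and no doublet caller was run.

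The cells, gene lists and rules were chosen with earlier results of these data known. Named genes were, per direction, the 15 that differed most in mean log2(CPM + 1) out of those at 100 CPM in at least 6 compared cells, then list members past 3 and duct, keratin, junction and transcription factor genes by role. Some cells and genes singled out for their spread were chosen after their values were seen. No test was made, because each sample is 1 cell and no animal is named. The difference calculation was run on shuffled values with some genes raised, which checks the arithmetic alone and not the counts reported. Alternatives changed the pseudocount, filter, scaling, Krt19 and Spp1 limits and transcript summing, left out each cell, and divided the cells by number. Python 3.11.15, numpy 2.4.6, pandas 2.3.3 and matplotlib 3.10.9 were used. The promoter came from RefSeq (GRCm38.p6), a build other than mm9, so its coordinates belong to that table alone. A member of the transcription factor list is not reported here.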

Additional observations from a re-analysis of the deposited data

How the results depend on the processing

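The counts reported were 213 genes higher and 120 lower in Krt19-high cells, with 13 ribosomal protein genes higher and 8 hepatocyte markers lower. A pseudocount of 0.1 in place of 1 CPM gave 671, 356, 25 and 16, and a pseudocount of 10 gave 22, 19 and 5, with 6 hepatocyte markers, as a larger pseudocount compresses low values. Setting all cells with Krt19 under 100 CPM on the other side gave 137, 76 and 8, with 11 hepatocyte markers. The lower-numbered cells gave 807, 379 and 44 and the higher-numbered cells 332 and 481. Without the Krt19-undetected cells that had 10 or more hepatocyte markers, 360 genes were higher and 20 ribosomal protein genes. Leaving out each cell in turn gave 186 to 286 genes higher, 114 to 172 lower, 10 to 21 ribosomal protein genes (21 without cell 26) and 7 to 12 hepatocyte markers. Among named genes past 3, the direction turned for Cdkn1a (0.30) and Rgs5 (2.10) in the lower-numbered cells and for Alb (0.19), Cldn2 (-3.06) and Psmc4 (0.75) in the higher-numbered cells, and the cause was not tested. Of 213 genes higher, 197 kept the direction in both sets of cells and 66 passed 3 in both, and of 120 lower 106 and 34 did. Those genes were picked by their difference over the same cells, so a shared direction is partly built in and is no support. Of 4758 alternative values over 154 named genes, those 5 turned, 4702 others moved by less than 1 SD between cells and 51 by more. Most of these values came from leaving out 1 cell, which can hardly move a group mean by 1 SD. The Spp1 limit of 10 CPM gave the same 11 and 7 cells, and the filter left each gene's difference as it was. The 4702 is therefore no measure of robustness. Of the 68 named genes under 3, 34 took the other sign in at least 1 alternative. Of 86 named genes past 3, 35 were under 3 when some single cell was left out, among them Atp5d, Atp5f1, Gsk3b, Lats2, Mgst1, Ndufa12, Ndufa5, Psma2, Psmb6, Psmc4, Rgs5, Rpl19, Rps18, Rps19, Rps21, Sdhd and Vgll4. No paired analysis was possible because the labels hold 1 group and pair no cells. With few reads per CPM and cells of unknown animals, these values describe 18 cells and no difference between conditions.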
